A study of Mus musculus with 10 samples.

Results

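Slc26a5 encodes prestin, the motor protein of the outer hair cell (OHC), and Lmod3 encodes leiomodin 3, a nucleator of actin filaments. Both genes were followed across the hair cells (HCs) of the inner ear as 2 of 32285 annotated genes. They were selected on their measured levels across the HC clusters of these data, so their levels are given as a description, with no test. Single-cell libraries of 22-month-old wild-type CBA/J mice were analysed, with 4 libraries counted for the cochlea and 4 for the vestibule. Mice of both sexes were used, and the sex of the mice in each library is not given. Each library pooled the sensory organs of several mice, so differences between individual mice cannot be seen. No library of young mice was used here. A further library of each organ, replicate 2, repeated replicate 1. The pair shared 1313 cochlear and 1633 vestibular cell barcodes, against at most 41 for any other pair of libraries, and their counts differed by less than the sampling noise. They were counted as 1 sample, represented by replicate 1.

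The cochlea holds a single row of inner hair cells (IHCs), which signal sound to the nerve, and rows of OHCs, which amplify it. Prestin belongs to the SLC26 family of anion transporters, but in mammals it works in the OHC lateral wall, where it changes its area with voltage and so drives the length changes of the cell. Beneath that membrane lies a cortical lattice of actin and spectrin. Leiomodin 3 is best known from skeletal muscle, where it acts on the thin filament, and its loss causes nemaline myopathy. The vestibular organs hold type I and type II HCs, which report head movement.

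HCs were identified by markers after clustering in which neither Slc26a5 nor Lmod3 was among the variable genes. In the cochlea, 78 cells were OHCs, with 24, 32, 8 and 14 in replicates 1, 3, 4 and 5. All 6 OHC markers (Ocm, Ikzf2, Sri, Strip2, Chrna10 and Lbh) were enriched in them and none of the 6 IHC markers was. There were 75 IHCs, with 2, 49, 6 and 18 in the same libraries. They lay in 2 subclusters, 44 cells of high depth with all 6 IHC markers enriched, and 31 of low depth with 3 IHC markers and 1 OHC marker enriched that were led by AY036118, Gm42418 and Mt2. A further 69 cochlear cells carried HC markers together with supporting cell markers. They had a median of 15664 unique molecular identifiers (UMIs), and Sox2, a supporting cell and type II HC gene, was found in 82.6% of them. These mixed cells were kept apart. The vestibule gave 1491 type I and 273 type II HCs, and 510 further HCs that were mixed or unnamed were kept apart. Over the 8 libraries, 571 to 5438 cells were kept, and the OHCs had a median of 2644 UMIs, with medians of 2472 to 3622 UMIs by library.

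Slc26a5 lies on the minus strand of chromosome 5, from 21810655 to 21865604 in GRCm38, the mm10 build, with 20 exons in its longest transcript. Lmod3 lies on the minus strand of chromosome 6, from 97238534 to 97252759, with 3 exons. No annotated gene overlaps either of them in GENCODE M21, so their reads are not shared with an antisense or overlapping gene. The nearest genes beyond their 3′ ends, Psmc2 at 6867 bases and Arl6ip5 at 5218 bases, run on the opposite strand.

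The stretch of 250 bases before the start of Slc26a5 is shown to place the gene whose level separates the HC types, beside the same stretch of Strip2 (chr5:21865605-21865854, minus strand, and chr6:29916763-29917012, plus strand, RefSeq, GRCm38.p6). Strip2 is 1 of the 6 markers used to name OHCs, so its high level there was built in. Within OHCs, Strip2 and Lmod3 were highest in replicate 4 and Slc26a5 in replicate 5. Capitals mark matches to GGGCGG, the GC box bound by Sp1-type factors, and to TGGGAA, which contains the core letters bound by Ikaros-type zinc fingers, on either strand.
Slc26a5: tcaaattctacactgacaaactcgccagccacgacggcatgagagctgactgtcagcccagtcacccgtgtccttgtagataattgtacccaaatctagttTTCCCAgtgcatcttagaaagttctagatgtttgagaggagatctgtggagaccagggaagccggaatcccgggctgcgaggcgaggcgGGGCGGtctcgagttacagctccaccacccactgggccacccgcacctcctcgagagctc
Strip2: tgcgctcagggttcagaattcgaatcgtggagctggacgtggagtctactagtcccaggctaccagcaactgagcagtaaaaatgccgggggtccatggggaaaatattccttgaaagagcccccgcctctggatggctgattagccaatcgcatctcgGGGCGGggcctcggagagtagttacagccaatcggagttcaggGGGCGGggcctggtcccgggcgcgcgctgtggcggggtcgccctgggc
Each of the 2 windows held GGGCGG, which also stood in 32.7% of the 32851 RefSeq windows of this length. TGGGAA stood in the Slc26a5 window, as its reverse complement TTCCCA, and in 21.6% of all windows. The shorter letters GGGAA within it also stood, unmarked, in the Strip2 window and elsewhere in the Slc26a5 window. Neither window held AGGTCA, the recognition letters of nuclear receptors, or ATTAAT, a POU-type motif, which stood in 14% and 4.39% of all windows. These matches describe letters and not binding.

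Slc26a5 was abundant in OHCs and close to 0 in every other named population. Its level in OHCs was 1244, 1478, 1495 and 2736 in replicates 1, 3, 4 and 5 (CPM, the UMIs of a gene per 1000000 UMIs of the summed cells), with a mean of 1738 ± 675 (SD, n = 4). Replicate 5 was the highest, with an exact Poisson 95% interval of 2284 to 3251 that did not reach the intervals of the other libraries, which together ran from 1001 to 2028. All such intervals cover counting error only. The kit captures the 3′ end of each transcript, so these values were not divided by gene length. By mean level Slc26a5 was number 44 of the 11086 genes with a UMI in OHCs.

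In IHCs, Slc26a5 gave 2 UMIs in 534413. Both came from 1 cell of replicate 3, which also held 89 UMIs of the OHC marker Ocm and 8 of the IHC marker Slc17a8, the vesicular glutamate transporter. Type I HCs held 2 UMIs in 1491 cells, in 2 cells of vestibular replicate 3, and type II HCs held 0 UMIs in 273 cells. The 2 type I cells held 8 and 4 UMIs of Ocm, and their barcodes were not among those of cochlear replicate 3. Pooled over libraries, the level in OHCs was 443 times that in IHCs (counting interval 122 to 3672) and at least 762-fold higher than in type II HCs, taking 3 UMIs over the group as the limit of a count of 0. Among the other cochlear cells 16 UMIs were found in 7050 cells, 0.543 CPM, with UMIs in each of the 4 libraries. The other vestibular cells held 0 UMIs in 8150 cells, which allows a level of up to 0.124 CPM.

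Lmod3 was also highest in OHCs, at a lower level than Slc26a5. In OHCs it stood at 301, 147, 474 and 339 CPM in replicates 1, 3, 4 and 5, with a mean of 315 ± 135 (SD, n = 4). Replicate 3 was the lowest and replicate 4 the highest, with counting intervals of 78.1 to 251 and 252 to 811. The library highest for Slc26a5, replicate 5, was second for Lmod3. Lmod3 was number 462 by mean level among genes with a UMI in OHCs.

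In IHCs, Lmod3 was at 0 in the 3 libraries with at least 5 IHCs. The exception was replicate 1, with 2 IHCs, where 1 cell held 3 Lmod3 UMIs together with 33 UMIs of IHC markers and none of OHC markers. Pooled over libraries, the Lmod3 level in OHCs was 48.2 times that in IHCs (counting interval 15.8 to 240). Against the mixed cochlear HCs the ratio was 8.34 for Lmod3 (5.42 to 13.0) and 82.7 for Slc26a5 (53.4 to 135). No Lmod3 UMI was found in the vestibular HC types. The OHC level was at least 541-fold higher than the type I level and at least 124-fold higher than the type II level. The other cochlear cells held 9 UMIs, in 2 of 4 libraries, and the other vestibular cells held 1. Below the OHCs no order was resolved among the IHCs, type I HCs, type II HCs and other cochlear cells. Their counting intervals overlapped for each gene in the libraries with at least 5 cells. The mixed cells overlapped the IHCs for Slc26a5 in replicates 3, 4 and 5 and for Lmod3 in replicates 3 and 5. In replicate 4 the Lmod3 interval of the mixed cells, 53.1 to 146 CPM, lay above that of the IHCs, 0 to 47.5. Of the 17 Lmod3 UMIs there, 14 were in 1 of the 9 mixed cells. The counting interval does not cover such spread between cells, so this difference rests mainly on 1 cell.

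**Figure D1:**
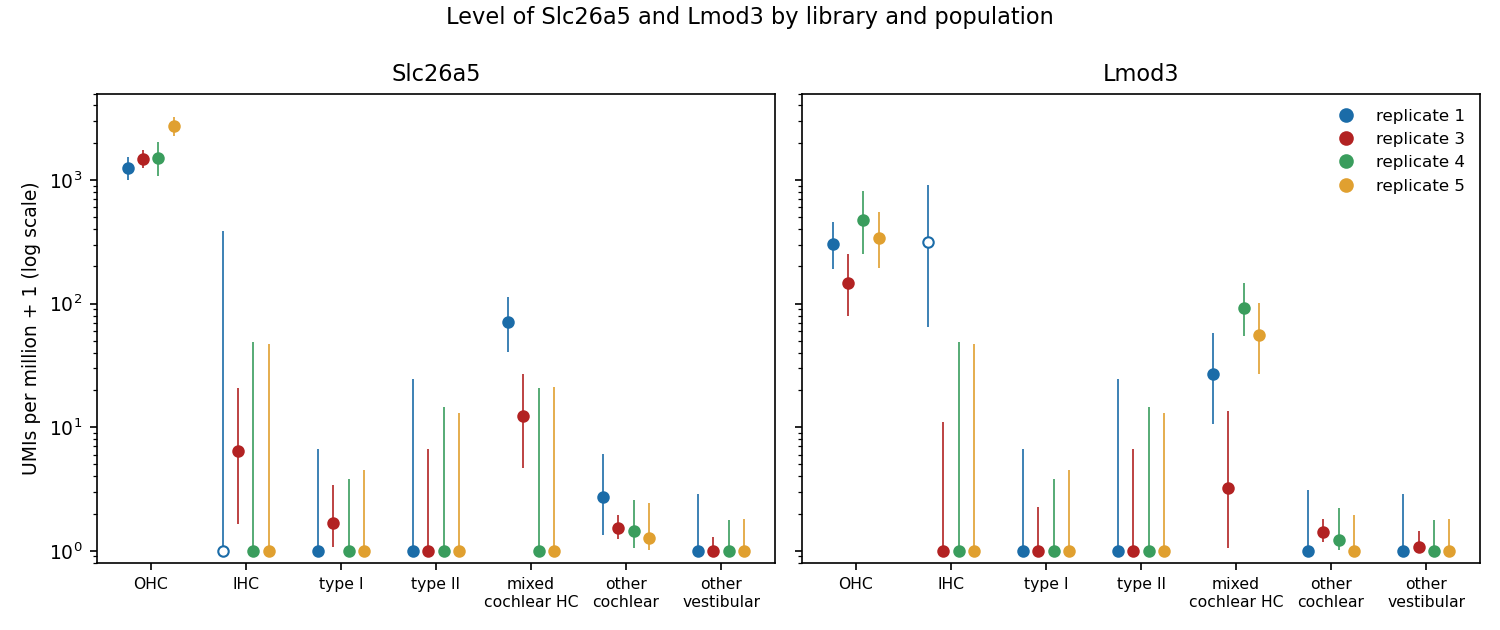
Level of Slc26a5 (left) and Lmod3 (right) in CPM plus 1, on a log axis, for each library and population. Points are libraries, bars are exact Poisson 95% intervals, and the open point is a library with under 5 cells. OHCs stand at 1244 to 2736 for Slc26a5 and 147 to 474 for Lmod3, and the named non-OHC types stand at or near 0, except for Lmod3 in the 2 IHCs of replicate 1.

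A Slc26a5 UMI was found in 65 of 78 OHCs, 83.3% (73.2 to 90.8%, exact binomial), and a Lmod3 UMI in 33 of 78, 42.3% (31.2 to 54.0%). By library, the Slc26a5 share was 79.2%, 78.1%, 100% and 92.9% in replicates 1, 3, 4 and 5, and the Lmod3 share was 50%, 31.2%, 62.5% and 42.9%. Among cochlear macrophage-like cells, which should lack both genes, the shares were 0.258% for Slc26a5 and 0 of 388 for Lmod3, which allows up to 0.773%, at a median of 2400 UMIs. In the 69 mixed cochlear HCs, at a median of 15664 UMIs, the shares were 5.8% for Slc26a5 and 13.0% for Lmod3. OHCs were shallower than IHCs, with medians of 2644 and 5693 UMIs. With every cell reduced to 1000 UMIs, which no kept cell falls below, the shares became 69.4% in OHCs and 0.446% in IHCs for Slc26a5, and 21.3% and 0.584% for Lmod3.

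Ocm, which encodes the calcium buffer oncomodulin and is the most abundant OHC marker, was found in a larger share of each HC type than either gene. It was found in 93.6% of OHCs, but also in 50.7% of IHCs, 16.4% of type I and 25.6% of type II HCs, and in 1.03% of cochlear macrophage-like cells. Slc26a5 was found in 1.33% of the same IHCs. Ocm was far more abundant, and the highest count in an OHC was 420 UMIs for Ocm and 22 for Slc26a5. A share of cells with a UMI rises with abundance, so these shares do not rank the genes by how specific they are to OHCs. The part of RNA from other cells in the Ocm shares was not tested.

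**Figure D2:**
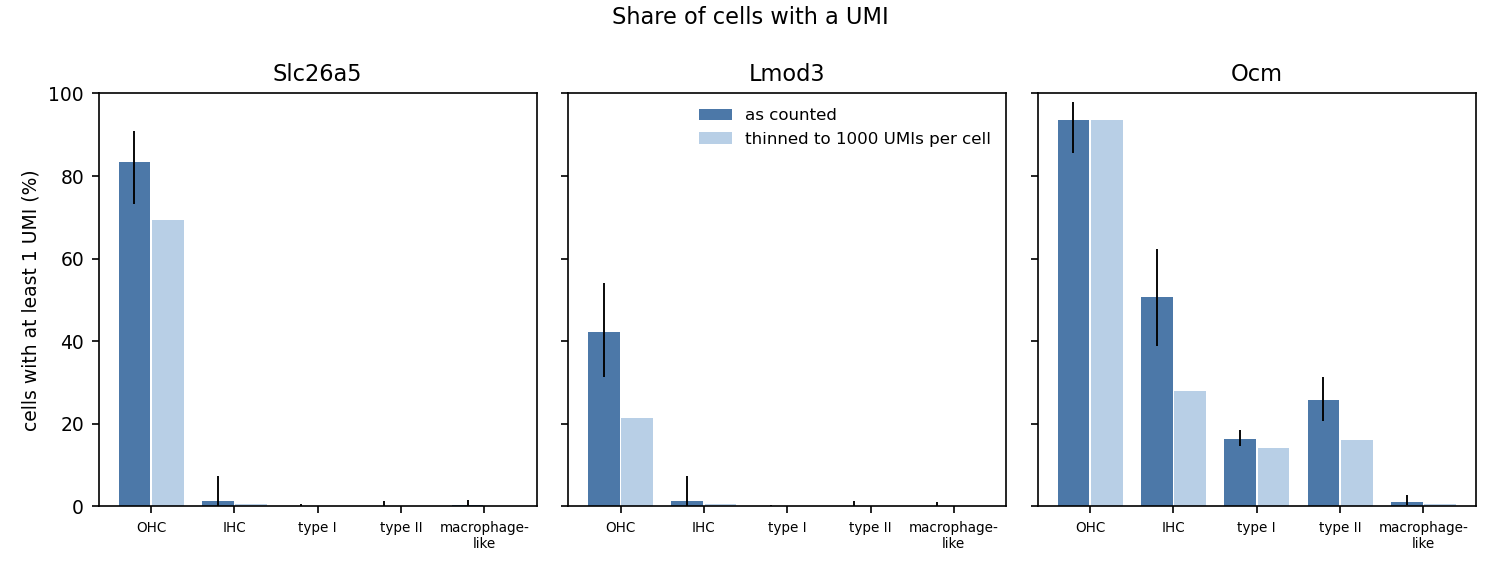
Share of cells with at least 1 UMI of Slc26a5, Lmod3 or Ocm in 5 populations, as counted (dark, bars are exact binomial 95% intervals) and reduced to 1000 UMIs per cell (light). Slc26a5 reaches 83.3% and Lmod3 42.3% of OHCs and at most 1.33% of the other populations shown. Ocm, which is far more abundant in OHCs, reaches 50.7% of IHCs. The mixed cochlear HCs are not shown.

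Within OHCs, 29 cells held both transcripts, 36 held Slc26a5 without Lmod3, 4 held Lmod3 without Slc26a5 and 9 held neither. The highest counts in a cell were 22 for Slc26a5 and 5 for Lmod3, and 16 of the 33 cells with Lmod3 held 1 UMI. The cells with no Slc26a5 had a median of 1389 UMIs, against 2828 for those with it. In the lowest, middle and highest 26 OHCs by total UMIs, Slc26a5 was found in 61.5%, 96.2% and 92.3% and Lmod3 in 30.8%, 38.5% and 57.7%. Their levels in the same 3 sets of cells were 1307, 1975 and 1590 CPM for Slc26a5 and 271, 236 and 291 for Lmod3, so the level of Lmod3 changed less with depth than its share did. The Slc26a5 share rose from the lowest to the middle set only. Of the 13 OHCs without Slc26a5, 5 also held no Ocm UMI, 4 of replicate 3 and 1 of replicate 5, at 1050 to 4578 UMIs. These 5 held no Lmod3 either, and their markers stood at 0 to 6 UMIs for OHCs and 2 to 9 for IHCs, so their label is less sure. Without them the shares were 89.0% for Slc26a5 and 45.2% for Lmod3, over 73 cells, and the mean levels 1804 ± 698 and 322 ± 128 CPM (n = 4). Over all OHCs, there were 6.12 Slc26a5 UMIs for each Lmod3 UMI, and 4.14, 10.1, 3.15 and 8.06 in replicates 1, 3, 4 and 5.

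**Figure D3:**
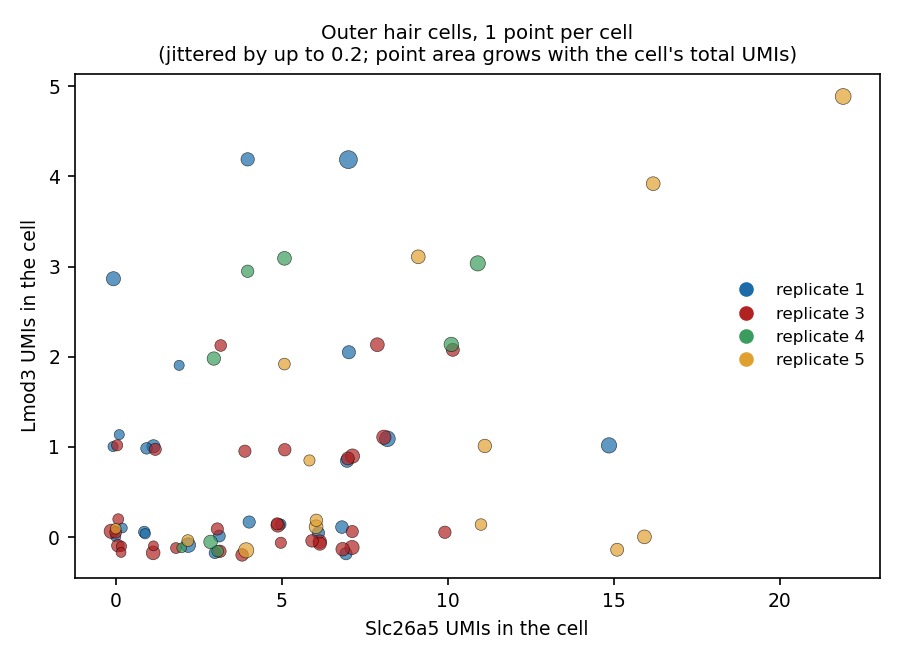
Slc26a5 UMIs against Lmod3 UMIs in each of the 78 OHCs, coloured by library, with point area growing with the total UMIs of the cell. Of these cells 29 hold both transcripts, and the cell with 22 Slc26a5 and 5 Lmod3 UMIs belongs to replicate 5.

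The mixed cochlear HCs differed from OHCs in the balance of the 2 genes. They held 21 Slc26a5 UMIs in 4 cells and 34 Lmod3 UMIs in 9 cells. Those 4 cells also held Lmod3. All 4 had at least 67 UMIs of OHC markers, and they came from replicates 1 and 3. The other 5 cells held Lmod3 at 14, 8, 2, 2 and 1 UMIs with no Slc26a5. They came from replicates 4 and 5, and their OHC markers stood at 0 to 8 UMIs against 42 to 100 UMIs of IHC markers. Supporting cell markers stood at 0 to 13 UMIs in these 9 cells. In the 64 mixed cells with as many or more IHC than OHC marker UMIs there were 30 Lmod3 and 4 Slc26a5 UMIs, where OHCs held 6.12 Slc26a5 UMIs for each Lmod3 UMI. Of the Slc26a5 UMIs in kept cochlear cells 91% were in OHCs, and of the Lmod3 UMIs 58.2% were, with 30.9% in mixed cells. The part of cells captured together in these counts was not tested.

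RNA of other cell types was also counted in OHCs. All 6 macrophage markers were at 0, and 7 of 8 skeletal muscle markers were, Acta1, Ckm and Ttn among them. The exception was Tnnt3, fast troponin T, at 6 UMIs in 2 libraries. Supporting cell markers summed to 0 to 45.1 CPM over the 4 libraries, with Fgfr3, Lfng and Hes5 at 0. Glial markers summed to 21.2 to 327, with none at 0, neuronal markers to 147 to 182, with Tubb3 at 0, and erythrocyte markers to between 0 and 8433, with none at 0. Their part in the levels of the 2 genes was not tested.

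The genes whose levels were most like Slc26a5 were ranked by Pearson r of log2(CPM + 10) over 23 library sums of the 6 populations, among 2091 genes with at least 20 UMIs in OHCs. Lmod3 came first, with r = 0.990, and Slc26a5 was first for Lmod3. By Spearman's rho neither led, and for each gene only 1 of the 5 highest by Pearson r stayed among the first 5. Within those 5, Lmod3 at 0.703 for Slc26a5 stood behind Slc45a3 at 0.777 and C1ql1 at 0.710. For Lmod3, C1ql1 at 0.785 stood ahead of Slc26a5. Other genes ranked between or above these by Spearman's rho and are not named here. These sums share libraries and cell types, and the correlation mostly sets OHC sums apart from the rest, so it is a description. Both genes were selected on their levels across these clusters, and each ranked gene needed counts in OHCs. A high r between them was therefore built in and is no support for a link. The next 4 genes were shared by both, C1ql1, Strip2, Slc45a3 and Cables1, with r between 0.950 and 0.971 for Slc26a5. C1ql1, a secreted complement-like protein of synapses, stood at 629, 282, 401 and 488 CPM in the OHCs of replicates 1, 3, 4 and 5 and at 0 in IHCs, type I and type II HCs. It was found at 12.3 ± 4.68 (n = 4) in other cochlear cells. Strip2, one of the markers used to name OHCs, stood at 892 ± 308 in OHCs and 22.0 ± 25.2 (n = 3) in IHCs. Cables1, a binding partner of cyclin-dependent kinases, stood at 415 ± 208 in OHCs and 24.8 ± 21.1 in IHCs, and Slc45a3, a solute carrier, at 168 ± 70.0 and 7.03 ± 6.52.

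No other SLC26 gene accompanied Slc26a5. In OHCs, Slc26a2, a sulfate transporter, and Slc26a7, another anion transporter, gave 1 UMI each, and the other 8 family members gave 0. Family members were instead found outside HCs. Slc26a7 stood at 89.8 ± 23.5 CPM and Slc26a4, the gene of pendrin, at 26.2 ± 7.93 in other cochlear cells (n = 4), and at 2.73 ± 4.73 and 0.910 ± 1.58 in IHCs (n = 3). None of the 10 passed the filter on low counts in the comparison of organs.

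Among the relatives of Lmod3, which cap or extend the ends of actin filaments, Lmod1 was found in every HC type. It stood at 169 ± 89.7 in OHCs, 129 ± 53.1 in IHCs, 118 ± 18.2 in type I HCs and 128 ± 34.4 in those of type II. These levels overlapped. Lmod2, the cardiac form, gave 0 UMIs in each of these types. The tropomodulins cap the pointed end of the filament, and the 3 that were detected in OHCs were higher in IHCs than in OHCs in 3 of 3 libraries. For Tmod1 and Tmod3 this rested on few counts, with 11 and 4 UMIs in all OHCs and 30 and 28 in all IHCs. Tmod1 in replicate 4 and Tmod3 in replicate 5 stood at 0 UMIs in OHCs against 1 in IHCs, so their direction there is not resolved. Tmod2 stood at 158, 146 and 233 CPM in the OHCs of replicates 3, 4 and 5 and at 685, 516 and 644 in their IHCs. Tmod1 was highest in type II HCs, at 296 ± 41.3, and stood at 42.6 ± 44.9 in OHCs, where replicate 4 was at 0.

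Tpm1, a tropomyosin, stood at 203, 255 and 276 CPM in the OHCs of replicates 3, 4 and 5, at 81.9, 77.3 and 74.3 in their IHCs, and at 581 ± 38.3 (n = 4) in type II HCs. Of the muscle thin filament genes, Nebl (nebulette) stood at 174 ± 43.7 and Cfl2 (cofilin 2) at 84.8 ± 22.7 in OHCs. The other 8, with Neb (nebulin), Klhl40, Klhl41 and Acta1 among them, gave 0 UMIs in OHCs. Counted over the 50 listed genes other than Slc26a5 and Lmod3, 20 had at least 20 UMIs in OHCs and IHCs together. Of these, 5 were higher in OHCs in 3 of 3 libraries and 8 were higher in IHCs, against 18.4% and 25.7% of the 5394 genes that met the same limit. The 8 include Tmod1 and Tmod3, whose counts in OHCs were low. OHCs and IHCs are clusters of the same cells, so this carries no test.

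**Figure D4:**
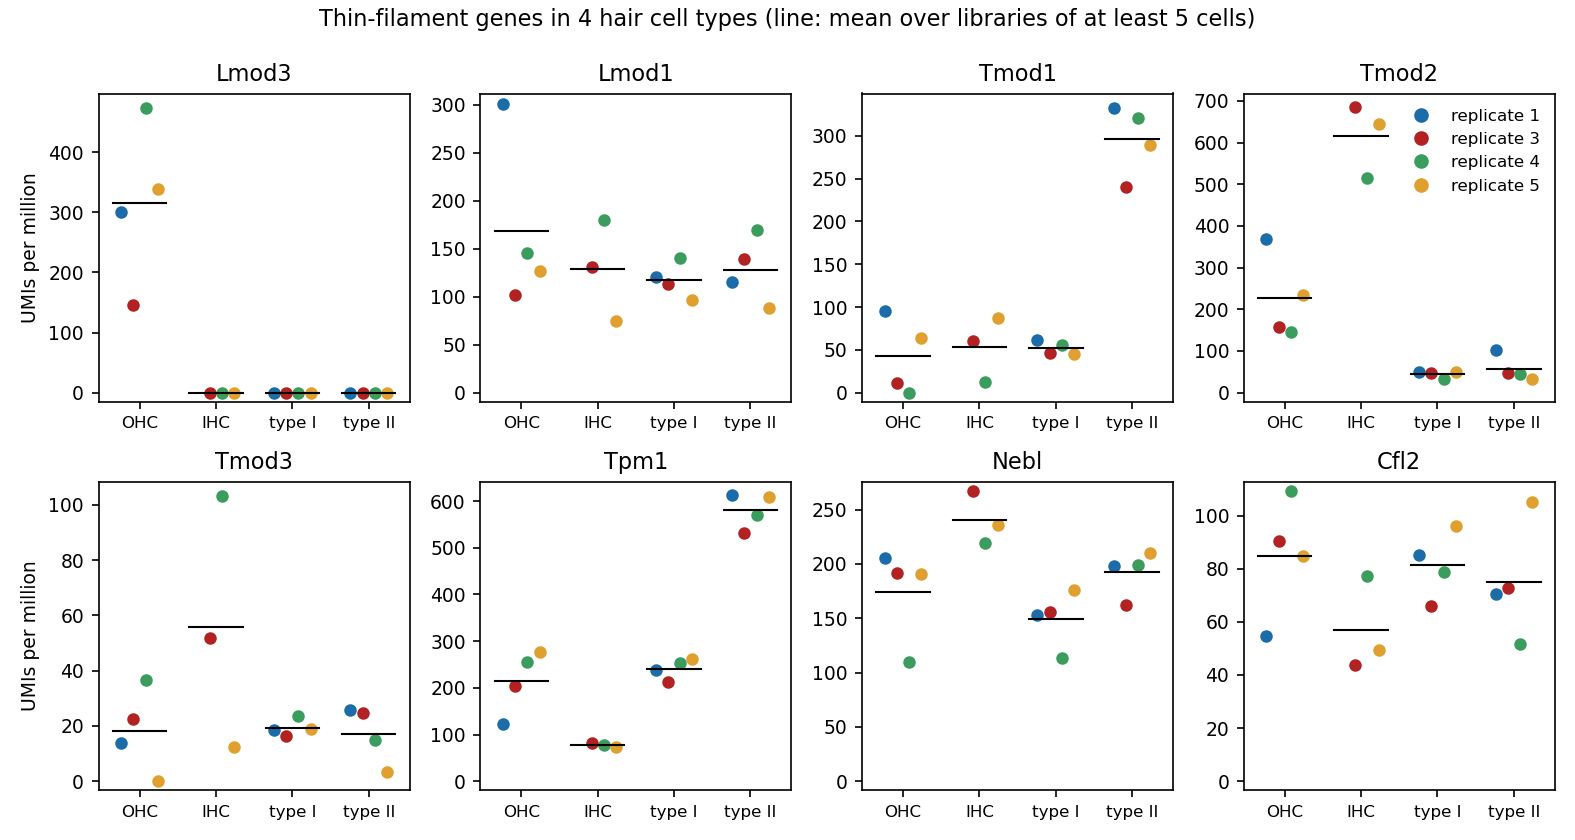
Levels of 8 thin filament genes in CPM in OHCs, IHCs, type I and type II HCs, 1 point per library with at least 5 cells and a line at the mean. Lmod3 is at 0 in the types shown other than OHCs, Lmod1 overlaps across the 4 types, Tmod2 is highest in IHCs and Tmod1 and Tpm1 are highest in type II HCs.

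The same lists were then compared between organs, which is a contrast that did not choose the cells by these genes. Counts were summed over OHCs and IHCs of each cochlear library and over type I and type II HCs of each vestibular library, 4 against 4, and tested with edgeR's quasi-likelihood test with Benjamini-Hochberg adjustment over 7663 genes. The same fit called 30.9% of all genes, with 12.8% higher and 18.1% lower in cochlear HCs. Of the 50 listed genes 21 were tested, and 5 were higher and 3 lower in cochlear HCs, 38.1%. The number higher was 2 without vestibular replicate 3 or 4 and 3 without vestibular replicate 5. OHCs gave 88.4% of the UMIs of the cochlear sum in replicate 1 and 19.5%, 26.1% and 36.9% in replicates 3, 4 and 5.

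Among the actin capping genes, Tmod2 was higher in cochlear HCs, at 411, 582, 419 and 493 CPM in replicates 1, 3, 4 and 5 against 59.8, 46.8, 34.6 and 45.4 in the vestibule, with no overlap (log2 fold 3.45 ± 0.22 SE, edgeR adjusted p = 6.8e-11). Without IHCs its fold was 2.33. Tmod3 was higher by 1.18 ± 0.39 (adjusted p = 0.024), but its cochlear libraries, at 7.82 to 85.7 CPM, overlapped the vestibular ones, and the call was lost without cochlear replicate 3 (adjusted p = 0.341) or 4 (adjusted p = 0.132) and without vestibular replicate 3 (adjusted p = 0.0563) or 5 (adjusted p = 0.0512). Tmod3 was too low to be tested without vestibular replicate 4, without IHCs or without replicate 3 of both organs. Tmod1 was lower by log2 fold -0.81 ± 0.29 (adjusted p = 0.0411), with 3 of 4 cochlear libraries below all vestibular ones. It was not called when OHCs (log2 fold -0.70, adjusted p = 0.0762) or IHCs (-1.09, adjusted p = 0.065) were left out, with the replicate block (-0.76, adjusted p = 0.0658) or upper quartile scaling (-0.76, adjusted p = 0.0536), nor without cochlear replicate 3 or 4 or vestibular replicate 1, 4 or 5 (adjusted p between 0.0518 and 0.162), and it was higher by 1.95 with the mixed cells counted. In type I HCs Tmod1 stood at 45.3 to 61.8 CPM, within the cochlear range of 9.52 to 84.5, and in type II HCs at 240 to 333. Lmod1 did not pass (log2 fold 0.36 ± 0.24, adjusted p = 0.288). The median log2 fold of the 4 tested genes was 0.77, against -0.06 over all genes.

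Tpm1 was lower in cochlear HCs, at 105 to 149 CPM against 269 to 339, with no overlap (log2 fold -1.32 ± 0.22, edgeR adjusted p = 4.41e-05). It was not called with IHCs left out (log2 fold -0.64, adjusted p = 0.068). In replicates 1, 3, 4 and 5 Tpm1 stood at 238, 212, 253 and 261 CPM in type I HCs and 123, 203, 255 and 276 in OHCs. IHCs lay below both of these types and type II HCs above both. Tpm3 did not pass (adjusted p = 0.985), and it was called higher by 0.82 with the mixed cells counted. Of the thin filament genes, Nebl was higher, at 190 to 253 against 128 to 184 CPM (log2 fold 0.56 ± 0.20, adjusted p = 0.0393), and lost its call with DESeq2 (adjusted p = 0.0534) and without cochlear replicate 3 or 5 or vestibular replicate 1, 3 or 4 (adjusted p between 0.0642 and 0.307). Without IHCs its fold was 0.20 (adjusted p = 0.668), with no filter 0.46 (adjusted p = 0.188) and without replicate 3 of both organs 0.41 (adjusted p = 0.337). Cfl2 did not pass (adjusted p = 0.436). None of the 6 tested cortical lattice genes passed, with Actg1 at log2 fold 0.30 ± 0.21 and Actb at 0.07 ± 0.21, and their median of -0.08 was close to that of all genes. With the mixed cells counted Actg1 and Actb were called higher, by 1.24 and 1.29.

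Of 7 tested genes with known functions in OHCs, 2 were higher and 1 was lower. Strc, which encodes stereocilin of the hair bundle, was higher by 0.97 ± 0.34 on the log2 scale (edgeR adjusted p = 0.0318), and Kcnn2, the potassium channel of efferent inhibition, by 1.20 ± 0.37 (adjusted p = 0.0165). The cochlear side of Kcnn2 rested on few counts, with 22 UMIs in all OHCs and 5 in all IHCs. Without cochlear replicate 1 the fold of Strc was 0.46 (adjusted p = 0.216), and its call was also lost without cochlear replicate 5 or vestibular replicate 3, 4 or 5 (adjusted p between 0.0645 and 0.0935). Kcnn2 lost its call without cochlear replicate 1 (0.94, adjusted p = 0.0747) and with the mixed cells counted (0.60, adjusted p = 0.156), where Strc stood at -0.21 (adjusted p = 0.573). Without IHCs the folds were 2.20 for Strc and 2.47 for Kcnn2. Without OHCs in the cochlear sums both turned in direction, Strc to -1.89 (adjusted p = 0.000252) and Kcnn2 to -0.69 (adjusted p = 0.466). In OHCs, Strc stood at 368 ± 93.6, against 22.5 ± 14.2 in IHCs and 83.3 ± 15.1 in type I HCs.

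Chrna9, a subunit of the efferent acetylcholine receptor, was lower in cochlear HCs, at 76.9 to 193 against 241 to 312 CPM (log2 fold -1.44 ± 0.25, edgeR adjusted p = 9.38e-05). Its level was 249 ± 53.6 in OHCs, 18.7 ± 22.5 in IHCs, 301 ± 30.6 in type I HCs and 189 ± 45.6 in those of type II. With IHCs left out its fold was -0.29 (adjusted p = 0.448), with OHCs left out -3.09 and with the mixed cells counted -2.44. Calm2, a calmodulin gene, did not pass (log2 fold 0.29 ± 0.30, adjusted p = 0.511), was higher without OHCs (0.82, adjusted p = 0.0089) and lower without IHCs (-1.01, adjusted p = 0.0113). Calm3, another calmodulin gene, did not pass (log2 fold -0.07 ± 0.20, adjusted p = 0.839). Unlike Slc26a5 and Lmod3, which were nearly absent from vestibular HCs, Chrna9 and Strc were found in both organs.

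**Figure D5:**
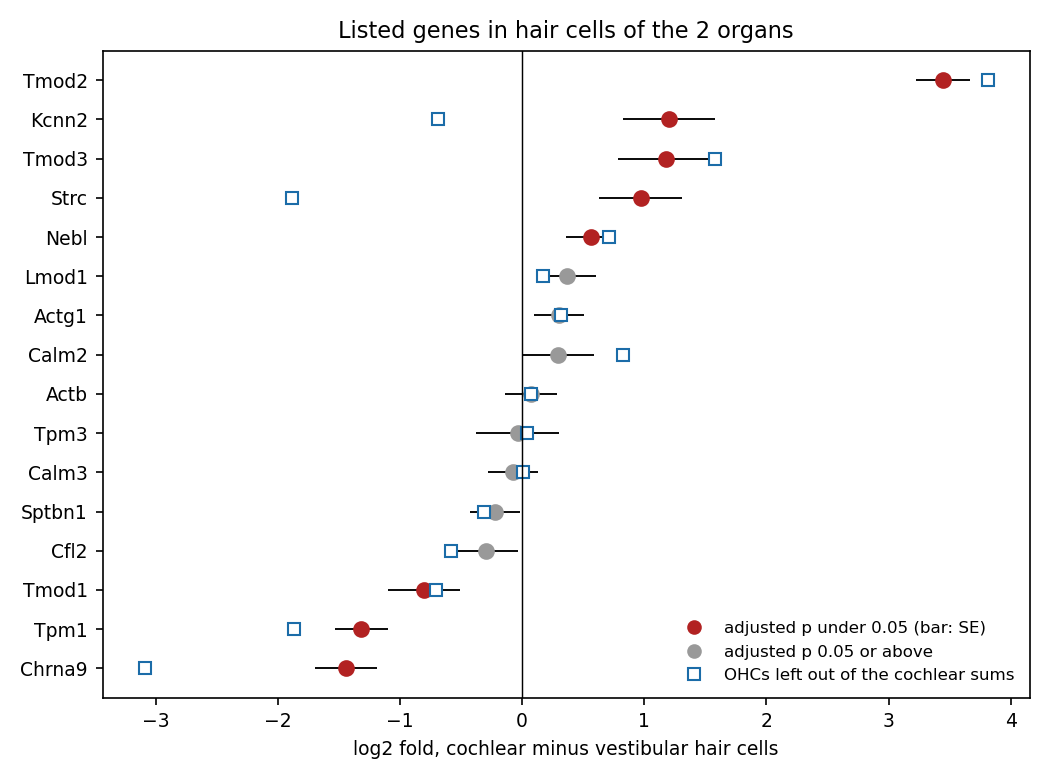
Log2 fold of 16 listed genes, cochlear minus vestibular HCs, with bars of 1 SE. Filled points are the comparison with OHCs and IHCs, in red where the adjusted p was under 0.05, and open squares leave OHCs out, which moves Strc from 0.97 to -1.89 and Kcnn2 from 1.20 to -0.69.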

How the data were processed

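Single cells of microdissected cochlear and vestibular organs of CBA/J mice were captured with the 10x Genomics 3′ kit, and the authors aligned the reads to mm10 with Cell Ranger. The deposited values are raw UMI counts per gene and barcode, without normalization. The headers of replicates 1 and 2 name version 5.0.1 and those of the remaining libraries 6.1.2, which the submitters' processing notes give as well. Replicates came from 5 libraries per organ, of which replicates 1 and 2 counted as 1.

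Slc26a5, Lmod3, the gene lists and the markers were chosen with earlier results of these data known. Barcodes with under 200 genes, under 1000 UMIs or 25% or more mitochondrial UMIs were removed, after the study's methods. Each organ was clustered in Seurat 5.3.0 (R 4.3.3) from 2000 variable genes without Slc26a5 and Lmod3, on 30 principal components at resolution 1, and HCs again at 0.5, with no integration. HC clusters had at least 3 of 6 HC markers enriched (at least 25% of cells, log2 fold of at least 1). A vestibular HC cluster was set aside where at least 5 of its 10 leading genes were among the top 100 of a non-HC cluster, and cochlear subclusters with at least 3 supporting cell markers were called mixed. These last rules were set after the clusters were seen. No doublet caller was run.

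Levels are CPM of the counts summed per library and population, and means use libraries with at least 5 cells. Shares were also computed as the expected share at 1000 UMIs per cell. Organs were compared with edgeR 4.0.16 (TMM, filterByExpr, quasi-likelihood, organ as the only term), and DESeq2 1.42.0 was an alternative. The test was also run on simulated counts. P-values measure the spread between libraries. The cochlear hair cell sums held 82816 to 455054 UMIs and the vestibular ones 803131 to 3610754, so low genes were less precise in the cochlea. Genes were named as the 3 most abundant in OHCs and up to 3 with the largest called change in each direction per list, the 5 most like each of Slc26a5 and Lmod3, and the markers. Alternatives covered clustering, cell filters, normalization, replicate blocks and left-out libraries. Vsig10l2, a listed type I marker, was not used here, and a few genes of the lists are not reported here and were left out of the list counts.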

Additional observations from a re-analysis of the deposited data

Results flagged for a closer look

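The Slc26a5 level in OHCs of replicate 5, 2736 CPM, stood apart from 1244, 1478 and 1495 in the other libraries, with a gap to range ratio of 0.832 against a critical value of 0.829. Leaving it out gave a mean of 1406 ± 141 (SD, n = 3). The OHCs of replicate 5 had a median of 3334 UMIs and a median mitochondrial share within those of the other libraries, 5.69 to 12.0%, as were their UMIs, 2472 to 3622. In the cochlear HC sums, replicate 1 stood apart for Chrna9, at 193 CPM. OHCs gave 88.4% of the UMIs of that sum, and among OHCs alone replicate 1 stood at 219 CPM for Chrna9. Of 37 groups examined 2 were singled out, and chance gives about 1 in 20.

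Slc26a5 was also counted outside the kept cells. Cochlear barcodes removed by the cell limits held 131 Slc26a5 UMIs in 51 barcodes, 23.3% of all Slc26a5 UMIs of the 4 cochlear libraries, and 17 Lmod3 UMIs in 17 barcodes. In the vestibule the removed barcodes held 0 and 1. Of the cochlear ones, 14 held at least 3 Slc26a5 UMIs each, 81 in all, and each of the 14 had at least 25% mitochondrial UMIs. They held 3 Lmod3 UMIs. Neither the kept OHC count nor the levels above include them.

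The mixed cochlear HCs held 34 Lmod3 UMIs and 21 Slc26a5 UMIs, against 64 and 392 in OHCs. The vestibular HCs that were mixed or unnamed held 0 of either in 510 cells.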

How the results depend on the processing

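The mean levels and shares of Slc26a5 and Lmod3 in OHCs moved by less than the SD between libraries under each alternative run: resolution 2, finer subclustering, both genes among the variable genes, under 15% mitochondrial UMIs, a minimum of 2000 UMIs, markers per cell, each cochlear library left out, OHCs without Ocm left out (chosen after seeing the data) and, for the levels, the mean of replicates 1 and 2. Mean levels ran from 1406 to 1903 CPM for Slc26a5 and from 262 to 371 for Lmod3, over 46 to 80 OHCs. Of the 5 genes most like Slc26a5 and Lmod3, 3 and 2 were kept with log2(CPM + 1) and 1 and 1 with Spearman's rho.

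Between organs, 981 genes were higher and 1384 lower. Leaving out 1 library gave 720 to 1194 and 1176 to 1584, DESeq2 914 and 1413, upper quartile scaling 1045 and 1315, no filter 1189 and 2010, and no OHCs 1072 and 1638. Listed genes higher in cochlear HCs numbered 2 to 5 with 1 library left out, 2 without vestibular replicate 3 or 4 and 3 without vestibular replicate 5, and those lower numbered 2 to 4, or 5 without OHCs. Alternatives chosen after seeing the data gave 1559 higher genes and 9 higher listed genes with mixed cells counted, 609, 3 and 1 lower listed gene without IHCs, and 604 and 3 without replicate 3 of both organs. Folds called in at least 1 of the 2 fits turned in direction with mixed cells counted for Tmod1 (1.95), Tpm3 (0.82) and Strc (-0.21), without OHCs for Strc (-1.89) and Kcnn2 (-0.69), and without IHCs for Calm2 (-1.01). For the 16 named genes, 215 of 269 values kept their direction and side of the threshold, and 13 more, of Lmod1, Tpm3, Actb, Sptbn1 and Calm3, turned in sign without being called in either fit. Apart from the sums that leave out or add cells, the cause was not tested.

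Samples with the same replicate number correlated at 0.0758, 0.0798, 0.122 and 0.0379 after removing the organ means, each best with its own number, but the labels do not tie the numbers to shared mice. A replicate block gave 936 higher and 1349 lower genes, with 5 and 2 listed. With 78 OHCs and 8 in the smallest library, 33.9 to 109 CPM were the limits that a count of 0 allows in the OHCs of a library.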
